A study of Mus musculus with 2 samples.

Results

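The 46 genes described here encode the receptor-proximal kinases, adaptors, enzymes, surface molecules, inhibitors and transcription factors of T-cell receptor signalling. They were taken by name from a list that was chosen with earlier results of these data known. All 46 were found among the 22219 protein-coding genes of the GENCODE annotation of mm9 (NCBIM37). The data were a Runx1 ChIP-seq experiment in CD4+ CD8+ double-positive (DP) thymocytes, which were sorted magnetically from the thymus of C57BL/6 mice, given as a C57Bl/6 J background in the methods. The methods give an age of 4 to 6 weeks for the mice of the study and do not say whether thymuses were pooled. Chromatin of 10000000 cells was precipitated with 10 µg of an anti-Runx1 antibody, for which the labels and the methods give different catalogue numbers, and an input library was made from the same cell type with no antibody. Each of the 2 conditions had 1 library, amplified by 15 cycles of PCR, so that no spread between replicates could be measured and no comparison below was tested. The deposited lists hold called peaks without reads, so the depth is unknown and the identity of the cells could not be checked against marker genes.

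Engagement of the T-cell receptor activates the kinases Lck and Fyn, which phosphorylate the receptor chains and thereby recruit Zap70. Zap70 phosphorylates the adaptors encoded by Lat and Lcp2, on which phospholipase C-gamma (Plcg1) and the exchange factors for small GTPases assemble. The signal then reaches NFAT, NF-κB and the immediate-early factors of the Egr and Nr4a families, and it is restrained by Csk, by phosphatases, by diacylglycerol kinases and by ubiquitin ligases. In DP thymocytes the strength of this signal decides between death, positive selection and lineage choice. Runx1 is a transcription factor that binds DNA together with Cbfb through the RUNX motif, TGTGGT, and is required at several steps of thymocyte development.

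A Runx1 peak had its centre within 5 kb of the TSS in 14 of the 46 genes, or 30.4% (exact Clopper-Pearson 95% interval 17.7 to 45.8%, for counting over genes only). The same was found in 992 of the 22173 other protein-coding genes, or 4.47% (4.21 to 4.75%). The 14 genes were Lck, Lat, Nedd9, Themis, Cd6, Csk, Ptpn6, Ptpn22, Dusp2, Dusp5, Dgka, Dgkd, Malt1 and Egr1. A centre inside the gene body was found in 11 genes, or 23.9%, as compared with 6.47% of the other genes, and a centre at either place in 19 genes, or 41.3%, as compared with 8.8%. With 50 kb on each side of the body, 30 genes, or 65.2% (49.8 to 78.6%), had a peak, as compared with 25.8% of the other genes.

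A peak at the promoter or in the body held TGTGGT no more than 100 bp from its centre at 13 places, and the sequences of 12 are shown here. The motif of the remaining peak, that of Cd6, lies in an exon. The sequences are given on the plus strand of NCBIM37, 5′ to 3′, over 100 bp on each side of the centre and without annotated exons. The removal of exons shortens those of Lat, Nedd9, Ptpn22 and the distal promoter of Lck. The sequences show where the motif sits around the centre of each peak. The windows are wider than the peaks, and the Dgka motif, 94 bp from the centre, crosses the edge of its peak. Capitals mark TGTGGT or, for a motif on the minus strand, its reverse complement ACCACA. A match of these letters is a description and not evidence of a bound site.
Lck, upstream of the proximal TSS, chr4:129235849-129236049: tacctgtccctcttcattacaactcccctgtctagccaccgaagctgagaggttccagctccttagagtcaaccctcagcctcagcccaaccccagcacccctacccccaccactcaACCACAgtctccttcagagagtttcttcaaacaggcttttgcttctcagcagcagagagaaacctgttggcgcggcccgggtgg
Lck, distal promoter, chr4:129250886-129250971: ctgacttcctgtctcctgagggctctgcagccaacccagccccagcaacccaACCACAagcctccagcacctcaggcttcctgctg
Lat, promoter, chr7:133513058-133513207: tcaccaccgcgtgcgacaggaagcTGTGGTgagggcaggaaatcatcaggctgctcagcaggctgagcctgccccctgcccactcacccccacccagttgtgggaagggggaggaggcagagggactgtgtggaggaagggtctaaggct
Nedd9, promoter, chr13:41582690-41582826: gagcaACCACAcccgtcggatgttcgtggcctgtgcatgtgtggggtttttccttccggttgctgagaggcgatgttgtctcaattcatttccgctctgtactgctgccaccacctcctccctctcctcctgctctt
Ptpn22, promoter, chr3:103664080-103664202: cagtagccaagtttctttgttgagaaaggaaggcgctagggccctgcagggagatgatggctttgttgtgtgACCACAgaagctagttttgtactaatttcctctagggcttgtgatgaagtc
Dusp2, upstream region, chr2:127160812-127161012: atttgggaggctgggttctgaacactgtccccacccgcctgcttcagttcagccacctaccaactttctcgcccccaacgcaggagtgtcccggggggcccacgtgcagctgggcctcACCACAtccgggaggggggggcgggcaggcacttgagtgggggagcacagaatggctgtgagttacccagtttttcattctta
Dgka, upstream region, chr10:128183390-128183590: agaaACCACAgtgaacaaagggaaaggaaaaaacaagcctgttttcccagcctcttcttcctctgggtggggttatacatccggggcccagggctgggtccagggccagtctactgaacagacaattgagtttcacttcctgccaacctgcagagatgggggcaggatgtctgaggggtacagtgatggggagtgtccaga
Dgkd, intron, chr1:89751587-89751787: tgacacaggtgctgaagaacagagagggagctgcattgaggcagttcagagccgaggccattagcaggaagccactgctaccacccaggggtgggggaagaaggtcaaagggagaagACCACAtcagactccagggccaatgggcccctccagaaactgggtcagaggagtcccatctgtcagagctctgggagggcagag
Lcp2, intron, chr11:33964135-33964335: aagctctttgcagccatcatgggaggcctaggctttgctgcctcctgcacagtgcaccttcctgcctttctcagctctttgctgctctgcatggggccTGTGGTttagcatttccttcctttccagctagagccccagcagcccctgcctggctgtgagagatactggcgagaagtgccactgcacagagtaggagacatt
Ptprc, intron and proximal of the pair, chr1:140051117-140051317: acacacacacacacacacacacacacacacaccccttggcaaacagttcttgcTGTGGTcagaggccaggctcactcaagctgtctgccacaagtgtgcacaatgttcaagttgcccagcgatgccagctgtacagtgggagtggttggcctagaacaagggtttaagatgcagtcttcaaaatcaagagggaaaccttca
Ptprc, intron and distal of the pair, chr1:140033033-140033233: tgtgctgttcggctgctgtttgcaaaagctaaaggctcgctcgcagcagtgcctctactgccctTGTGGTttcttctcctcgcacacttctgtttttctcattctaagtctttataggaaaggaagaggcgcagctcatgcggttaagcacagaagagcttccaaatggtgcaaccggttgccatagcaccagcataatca
Itpkb, intron, chr1:182286451-182286651: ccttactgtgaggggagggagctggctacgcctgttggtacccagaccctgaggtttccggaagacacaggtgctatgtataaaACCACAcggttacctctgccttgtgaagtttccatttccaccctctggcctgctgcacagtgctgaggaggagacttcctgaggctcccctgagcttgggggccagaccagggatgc

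**Figure D1:**
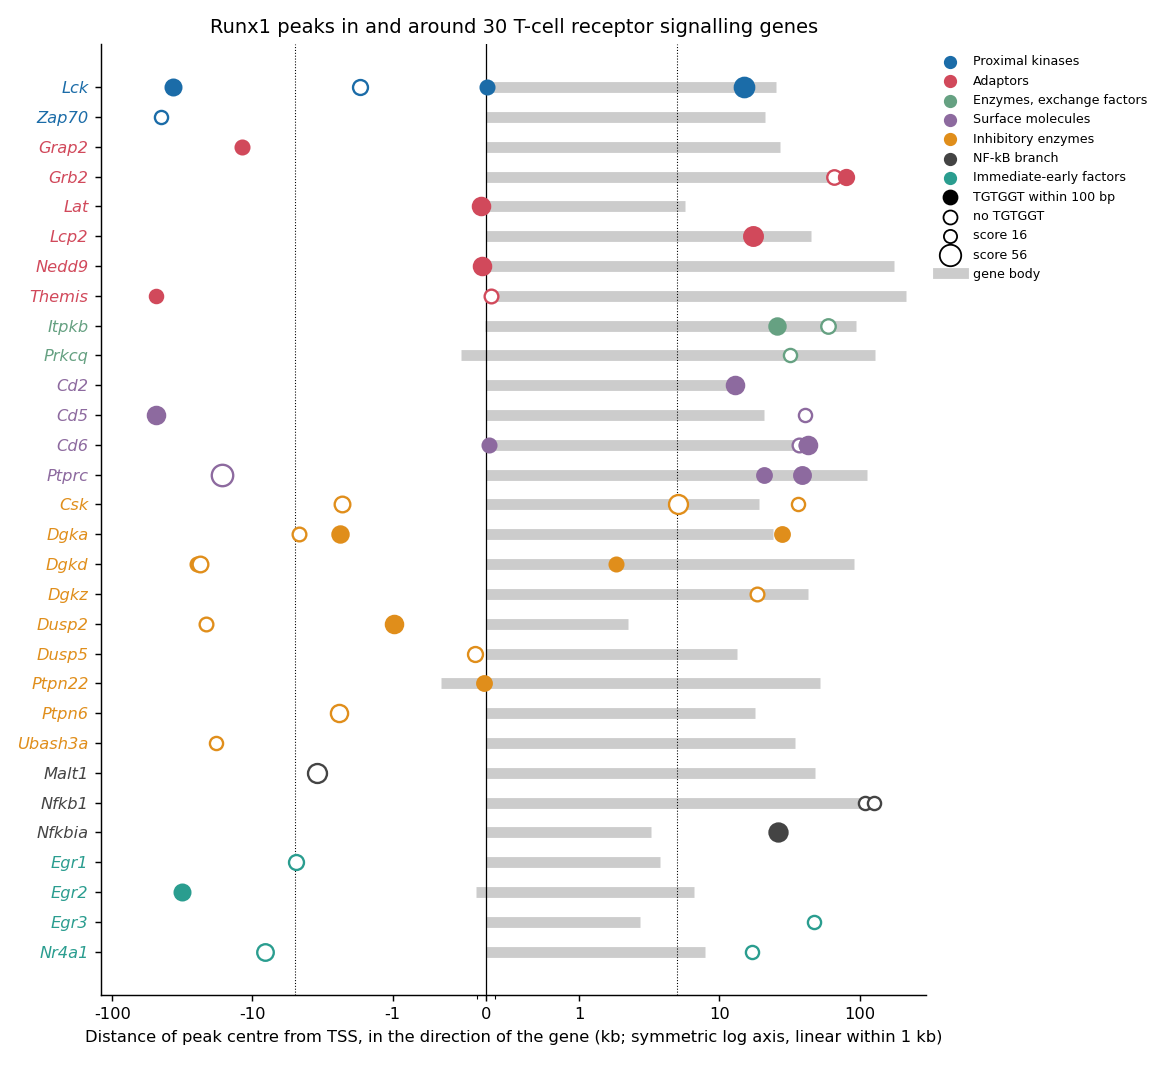
Position of Runx1 peaks relative to the TSS (of the longest coding transcript), in kb and in the direction of transcription, for the 30 genes with a peak in the body or within 50 kb of it. The axis is logarithmic beyond 1 kb and linear within it. Grey bars are gene bodies, dotted lines mark 5 kb, the area of a circle grows with the score, filled circles hold TGTGGT within 100 bp of the centre and colours give the role of the gene. The 7 circles next to the line at 0 are the peaks within 150 bp of the TSS.

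The gene bodies of the 46 genes were longer than those of other genes, with a median of 43.8 kb as compared with 15.5 kb. When the shares of the other genes were standardised to the lengths of the 46, they were 4.56% for the promoter, 9.42% for the body and 27.6% within 50 kb of the body. The values of the 46 genes thus stood above these shares at each of the 3 places. Windows of the same width displaced by 100 kb to either side of the TSS held a peak in 3 of 92 cases for these genes, or 3.26% (exact interval 0.678 to 9.23%), and in 2.59% of cases for the other genes. With only 3 windows counted, a difference at this distance was not detectable. When the flank was widened to 100 kb, the shares were 76.1% of the 46 genes and 38.5% of the other genes. The other genes include those that are silent in thymocytes, and as expression values were not used here, the part of expression in the difference was not tested.

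**Figure D2:**
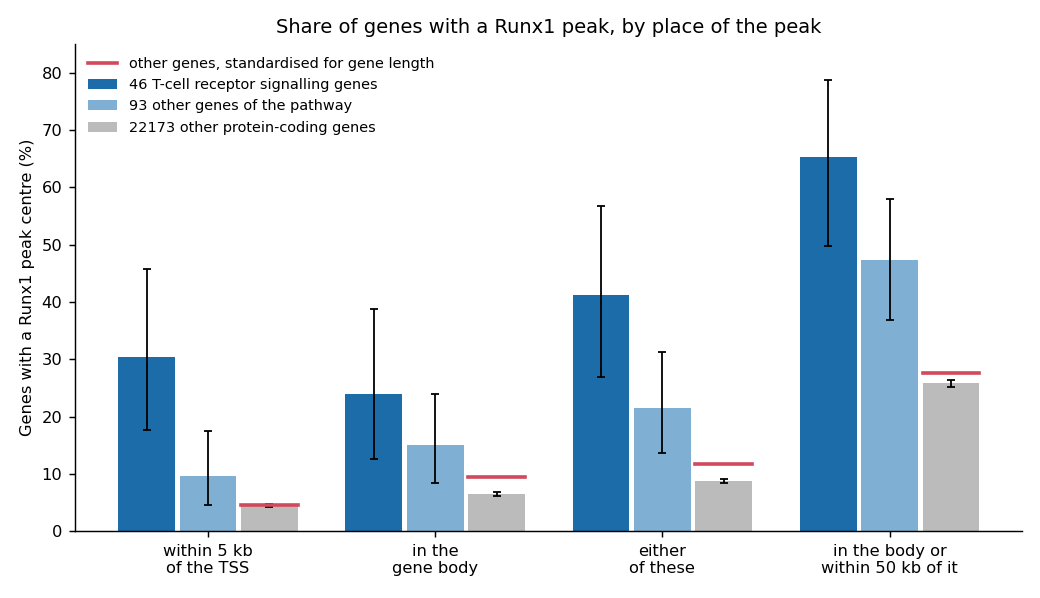
Percentage of genes with a Runx1 peak centre at each place for the 46 T-cell receptor signalling genes, for 93 other genes of the pathway and for the 22173 other protein-coding genes. Error bars are exact Clopper-Pearson 95% intervals over genes, and red lines give the shares of other genes standardised for gene length. The bar of the 46 genes reaches 30.4% within 5 kb of the TSS, where that of the other protein-coding genes is at 4.47%.

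Among other genes of the pathway, 93 of a list of 94 were found in the annotation. A peak lay within 5 kb of the TSS in 9 of them, or 9.68%, in the body of 14, or 15.1%, and in the body or within 50 kb of it in 44, or 47.3%. The 9 genes with a promoter peak were Ptpn7 and Dusp4, which encode phosphatases, Sla2, an adaptor that dampens signalling, Cd27, a co-stimulatory receptor, Akt2, Itpr3, a calcium channel, Rasal3, Rasgrp2 and Nfkb2. The highest score among them was 35, for a peak 780 bp upstream of the TSS of Rasgrp2, an exchange factor for small GTPases. Rasal3 had a pair of peaks, both with a score of 26, at 730 bp downstream and 10 bp upstream of its TSS. Of the 10 peaks of these genes, the Cd27 peak alone held TGTGGT within 100 bp of its centre. The motif was present at 26.2% of the 3481 Runx1 peaks that were not near the genes described here. With 10 peaks, a single peak shifts the share considerably, and the difference was not tested.

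Of the 4 receptor-proximal kinases, Lck had 4 peaks, Zap70 had 1, and Fyn and Txk had none within 50 kb. Beside the counts by role here and below stand the other protein-coding genes, of which 4.47% had a peak within 5 kb of the TSS. A peak in the body was found in 6.47% of them, and a peak in the body or within 50 kb of it in 25.8%. Lck is transcribed in thymocytes from a distal and a proximal promoter. The peak with the highest score of this gene, 44 (rank 138 of 3531 peaks, with ties at the best rank), lay in intron 1 of the longest transcript, at chr4:129235856-129236042. Its centre was 14936 bp downstream of the distal TSS and 314 bp upstream of the TSS of a shorter protein-coding transcript of Lck. The distal TSS was itself covered by a peak with a score of 18, centred 14 bp downstream of it in the 5′ UTR (chr4:129250778-129250964). TGTGGT was present in both of these peaks, in either case on the minus strand, on which Lck is annotated. A peak with a score of 23 and no TGTGGT, 1704 bp upstream of the distal TSS, and another with a score of 26 and the motif, 36578 bp upstream and nearest to the TSS of Dcdc2b, completed the locus. Zap70, the kinase recruited to the phosphorylated receptor, had a single peak with a score of 16, 44.7 kb upstream and nearest to the TSS of Actr1b.

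Of the 7 adaptors, 3 had a peak within 5 kb of the TSS, 1 had a peak further inside the body, 2 had peaks outside the body only and Sh2d2a had none within 50 kb. The Lat peak, with a score of 33, was centred 50 bp upstream of the TSS (chr7:133513014-133513200). Lat encodes the membrane scaffold of the signalling complex. The Nedd9 peak had the same score and was centred 37 bp upstream of the TSS (chr13:41582633-41582819). Nedd9 encodes a docking protein of the Cas family, and like the Lat peak its peak held TGTGGT and an E-box, CAGCTG. The Themis peak, with a score of 18, was centred 49 bp downstream of the TSS in the 5′ UTR (chr10:28388122-28388308) and held no TGTGGT. Themis is needed for positive selection, and its other peak, with a score of 16, lay 48.7 kb upstream. Lcp2, whose product joins the Lat complex, had a peak with a score of 40 in intron 3 (chr11:33964142-33964328), with TGTGGT at its very centre. Grap2, which encodes a partner of Lcp2, had a peak with a score of 18 at 11856 bp upstream of its TSS. The peaks of Grb2, an adaptor that binds exchange factors, had scores of 21 and 23 and lay beyond the 3′ end, 0.643 and 15.7 kb from the body.

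Among the 6 enzymes and exchange factors, no promoter had a peak, and Itpkb and Prkcq had peaks in the body. With 6 genes, the lack of a promoter peak cannot be told from the 4.47% of the other protein-coding genes that had one. Itpkb, an inositol trisphosphate kinase required for positive selection, had a pair of peaks in intron 2 with scores of 28 (chr1:182286458-182286644) and 21 (chr1:182320409-182320595), both nearest to the TSS of Gm5069. The former held TGTGGT and the ETS motif GGAAGT, and the latter neither. The Prkcq peak had a score of 16, the lowest found near the 46 genes, and lay in intron 1 of this gene for protein kinase C-theta (chr2:11126024-11126210). Prkcq was also the single gene of the 46 with an input peak within 50 kb of its body, with a score of 8 in the same intron, 26829 bp downstream of the TSS. Plcg1, Rasgrp1, Vav1 and Sos1 had no Runx1 peak within 50 kb.

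Of the 5 surface molecules, Cd6 had a promoter peak, Ptprc had peaks in the body, Cd2 and Cd5 had peaks outside the body, and Cd28, the main co-stimulatory receptor of T cells, had none. Ptprc encodes the phosphatase CD45, which activates Lck. The peak with the highest score of all those near the 46 genes, 56 (rank 62), lay 16505 bp upstream of its TSS (chr1:140088294-140088480) and was nearest to that TSS. The peaks in the body, both in intron 2, had scores of 21 (chr1:140051124-140051310) and 30 (chr1:140033040-140033226). These intronic peaks held TGTGGT, whereas the upstream peak with the higher score did not. Cd6 and Cd5, which encode related receptors that restrain signalling, are neighbours on chromosome 19 and shared 2 peaks with scores of 18 and 33. These shared peaks lay 0.895 and 1.78 kb beyond the 3′ end of Cd6, and 49.5 and 48.6 kb upstream of Cd5, and each held TGTGGT and CAGCTG. The other peak of Cd5 had a score of 16 and lay 19.8 kb beyond its 3′ end, inside Vps37c. Cd6 also had a peak with a score of 18, centred 33 bp downstream of its TSS (chr19:10904422-10904608), and another of that score in coding exon 9 (chr19:10867318-10867504). Cd2 encodes an adhesion and co-stimulatory receptor, and its peak, with a score of 33, lay 0.944 kb beyond the 3′ end of the gene (chr3:101078785-101078971).

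The inhibitory kinases, phosphatases, ubiquitin ligases and lipid kinases formed the largest group, with 12 genes. Of these, 7 had a promoter peak, 8 had a peak at the promoter or in the body, 9 had one within 50 kb of the body, and Cbl, Cblb and Dusp6 had none. In the other protein-coding genes, the shares for these places were 4.47%, 8.8% and 25.8%. Csk encodes the kinase that holds Lck in its inactive state. Its peak with a score of 42 (rank 166) lay in intron 1 (chr9:57488342-57488528), 5025 bp from the TSS and thus just outside the limit of 5 kb. Upstream of the TSS, at 2278 bp, lay another with a score of 26 (chr9:57495645-57495831), and beyond the 3′ end, at 17.6 kb, the last with a score of 16, inside Lman1l and nearest to the TSS of Cplx3. None of them held TGTGGT near its centre. Ptpn22 encodes a phosphatase that works with Csk, and its peak, with a score of 21, was centred 23 bp upstream of the TSS (chr3:103664087-103664273). This window alone among the promoter peaks held TGTGGT at 2 positions, of which the shortened sequence above shows 1. The Ptpn6 peak (chr6:124691058-124691244) had a score of 33 and lay 2419 bp upstream of the TSS of this phosphatase gene, but its centre fell in the bodies of Grcc10 and Atn1 and was nearest to the TSS of Grcc10.

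Dusp2 and Dusp5 encode phosphatases that inactivate MAP kinases. Their peaks had scores of 33, at 983 bp upstream of the TSS (chr2:127160819-127161005), and 23, at 122 bp upstream (chr19:53603384-53603570). The former held TGTGGT and CAGCTG, and the latter GGAAGT alone of the motifs searched. A further peak of Dusp2, with a score of 18, lay 21.6 kb upstream. The 3 diacylglycerol kinase genes of the list each had a peak at the promoter or in the body, at scores that stayed at or below 28 there. Of the other protein-coding genes, 8.8% had a peak at either place. For Dgka, peaks with scores of 28 (chr10:128183397-128183583) and 18 (chr10:128185704-128185890) lay 2378 and 4685 bp upstream of the TSS, both nearer to the TSS of Wibg, and a peak with 3 copies of TGTGGT and a score of 21 was found 3.93 kb beyond the 3′ end, inside Pmel. For Dgkd, intron 1 held a peak with a score of 18 at 1825 bp from the TSS (chr1:89751594-89751780), and a pair of further peaks lay 23.5 and 24.9 kb upstream, inside the neighbouring gene Sag. For Dgkz, intron 1 held a peak with the same score (chr2:91797418-91797604), nearest to the TSS of Gm9821. Ubash3a, a negative regulator of receptor signalling, had a peak with a score of 16 at 18.1 kb upstream, inside Tmprss3.

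A promoter peak was found in 1 of the 5 genes of the NF-κB branch, in none of the 3 NFAT genes and in 1 of the 4 immediate-early genes. It was found in 4.47% of the other protein-coding genes. In the NF-κB branch, Malt1, which encodes the protease of the complex that activates NF-κB, had a peak with a score of 42 (rank 166), 3462 bp upstream of the TSS (chr18:65587062-65587248). This peak held no TGTGGT near its centre. Nfkbia, which encodes the inhibitor of NF-κB, had a peak with a score of 37 and 2 copies of TGTGGT, 22.8 kb beyond its 3′ end (chr12:56567487-56567673). Both peaks of Nfkb1 had a score of 16 and lay downstream, nearest to the TSS of Manba, while Bcl10 and Rel had none within 50 kb. The 3 NFAT genes, Nfatc1, Nfatc2 and Nfatc3, had none either. With 3 genes, this cannot be told from the 25.8% of the other protein-coding genes with a peak there. The distance from the bodies of the NFAT genes to the nearest peak ranged from 89.6 kb (Nfatc3) to 498 kb (Nfatc1). Of the other protein-coding genes, 25.8% had a peak within 50 kb, and all 4 immediate-early genes had one. They differed in distance, with the Egr1 peak 4847 bp upstream of the TSS (score 23), just inside the limit of 5 kb, that of Nr4a1 8121 bp upstream (score 30), that of Egr2 31710 bp upstream (score 26) and that of Egr3 44.3 kb beyond the 3′ end (score 16), inside Bin3 and nearest to its TSS. Nr4a1 had a further peak with a score of 16, 9.15 kb beyond its 3′ end and nearest to the TSS of 9430023L20Rik. Among the peaks of the immediate-early genes, that of Egr2 alone held TGTGGT near its centre.

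In all, the 30 genes made 52 pairs of gene and peak with 50 different peaks, of which 16 pairs lay within 5 kb of the TSS, 10 elsewhere in the body and 26 outside it. The gene had the nearest protein-coding TSS in 13 of the 16 promoter pairs, in 7 of the 10 body pairs and in 11 of the 26 outer pairs. For most of the outer pairs, then, another gene started closer to the peak. Of the 16 promoter pairs, 12 had their centre upstream of the TSS, and 7 lay within 150 bp of it. Of the 10 body pairs, 9 lay in introns, 4 of them in intron 1. The outer pairs were split evenly, with 13 upstream and 13 beyond the 3′ end. At least 2 peaks within the body or 50 kb of it were found in 13 genes, or 28.3%, as compared with 6.26% of the other genes, and at least 3 peaks in 7 genes, or 15.2%, as compared with 1.47%. The last 7 were Lck and Cd6, with 4 peaks each, and Dgkd, Ptprc, Csk, Dgka and Cd5, with 3 each. Counted at the promoter and in the body alone, at least 2 peaks were found in 6 genes, or 13.0%, as compared with 1.02% of the other genes. At least 3 peaks were found there in Lck alone, or 2.17%, as compared with 0.149%.

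For the 16 genes without a peak, the nearest peak lay from 59.7 kb (Txk) to 1600 kb (Cblb) from the body. Cd28 followed Cblb at 668 kb. Just inside the limit of 50 kb were the outer peaks of Cd5 at 49.5 kb and of Themis at 48.7 kb. As the read depth is unknown, a gene without a peak in the list cannot be taken as unbound.

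The files give each peak a score whose meaning they do not name, and which is used here only to order the peaks of a list. The 50 peaks had scores from 16 to 56 with a median of 21, as compared with a median of 18 over the other 3481 peaks. A score above the median of the list was reached by 29 of the 50 peaks, or 58.0%, and by 38.4% of the others. The peaks at the promoter or in the body had a median of 23, and those outside the body a median of 18. The peaks with a score of at least 40 were those of Ptprc (56), Lck (44), Csk and Malt1 (both 42) and Lcp2 (40). Only the Malt1 peak among these 5 lay within 5 kb of the TSS of the longest transcript. TGTGGT was present near the centre of the Lck and Lcp2 peaks and missing from those of Ptprc, Csk and Malt1.

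**Figure D3:**
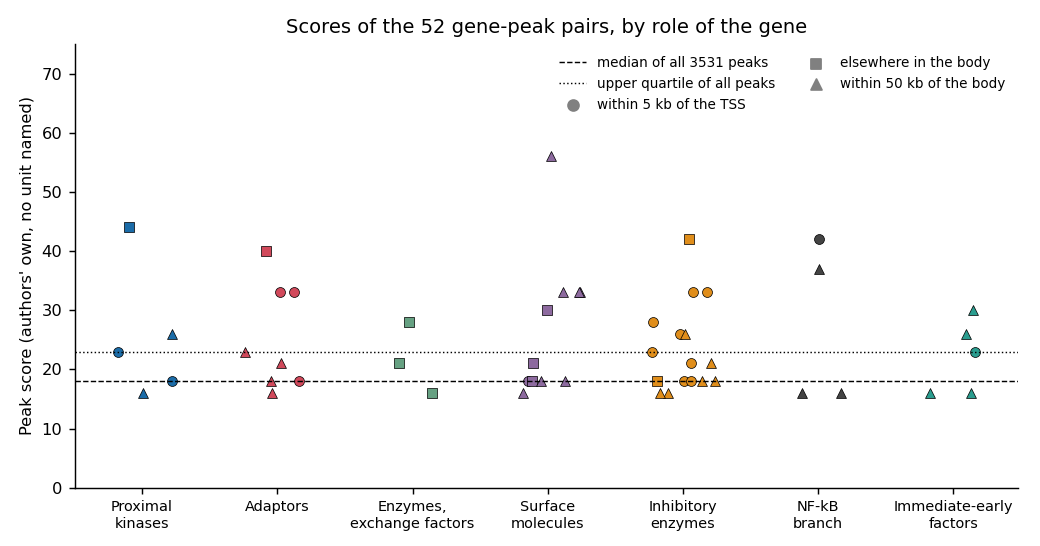
Score of the 52 pairs of gene and peak, by role of the gene, with 2 peaks shown for both Cd5 and Cd6. Circles are peaks within 5 kb of the TSS, squares those elsewhere in the body and triangles those within 50 kb of it. Lines give the median (18) and the upper quartile (23) of all 3531 Runx1 peaks, and the highest point is the upstream peak of Ptprc at 56.

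Of the 50 peaks, 24 held TGTGGT, read on both strands, no more than 100 bp from the centre, or 48.0% (exact Clopper-Pearson 95% interval 33.7 to 62.6%), as compared with 26.2% of the other peaks. At 1 kb to each side of the same 50 peaks, 22 of 100 windows of the same width held it, or 22.0%, as compared with 14.5% around the other peaks. The motif lay close to the centre, as it was found within 50 bp in 21 of the 50 peaks, or 42.0%, and in 16.8% of the other peaks. Since scores were higher near the 46 genes, shares were also taken by score. Above the median score, 17 of 29 peaks held the motif, or 58.6%, as compared with 31.1% of the others, and at or below it 7 of 21, or 33.3%, as compared with 23.1%. In the upper quartile of scores the shares were 58.3%, or 14 of 24 peaks, and 32.1%.

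The motif was present at 5 of the 7 peaks within 150 bp of the TSS, namely those of Lck, Lat, Nedd9, Ptpn22 and Cd6, and missing from those of Themis and Dusp5. Among other Runx1 peaks within 150 bp of a protein-coding TSS, 21.5% held it. Between 1 and 5 kb from the TSS it was present at 2 of 8 peaks, those of Dgka and Dgkd, as compared with 32.2% of other peaks at that distance from a TSS. In the body it was present at 5 of 10 peaks, as compared with 26.2% of all other peaks, wherever they lay. These 5 were the printed intronic sequences of Lck, Lcp2, Ptprc and Itpkb. Over 5 kb from the TSS of the longest transcript of any protein-coding gene, inside genes or between them, 14 of 29 peaks held it, as compared with 26.4% of other peaks. With 10 peaks or fewer in the first 3 of these classes, a single peak shifts a share considerably.

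**Figure D4:**
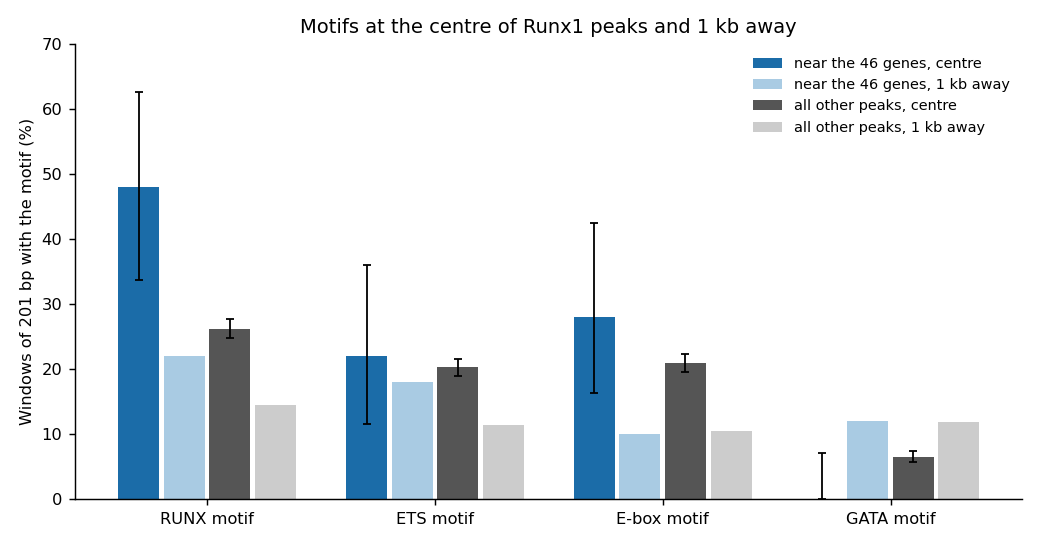
Percentage of windows of 201 bp that hold each motif on either strand, at the centre of the peak and 1 kb to either side, for the 50 peaks near T-cell receptor signalling genes and for the other 3481 Runx1 peaks. Error bars are exact Clopper-Pearson 95% intervals over peaks. The RUNX motif TGTGGT is at 48.0% of the centres near the 46 genes and at 26.2% of the others.

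Other motifs were searched in the same way. The E-box CAGCTG, which can be bound by E proteins, was found at 14 of the 50 peaks, or 28.0%, as compared with 20.9% of the other peaks. The ETS motif GGAAGT was found at 11, or 22.0%, as compared with 20.2%. The GATA motif AGATAA was found at none of the 50 peaks, which allows a share of up to 7.11% by the exact interval, and thus the 6.43% found at the other peaks. The E-box was found at 10 of the 24 peaks outside the body, or 41.7% (exact interval 22.1 to 63.4%), and at 4 of the 26 peaks at the promoter or in the body, or 15.4% (4.36 to 34.9%). These intervals overlap, and the difference was not tested. TGTGGT was found at 11 of the same 24 and at 13 of the same 26 peaks. The GC content of the 50 windows ranged from 45.3 to 65.7% with a median of 56.0%, as compared with a median of 54.2% for the other peaks.

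The input list, which serves as background, held 740 peaks. None lay within 5 kb of the TSS of the 46 genes, which allows a share of up to 6.52% of genes when 3 counts are taken as the limit and up to 7.71% by the exact interval, and the share was 0.207% among the other genes. The intronic peak of Prkcq was the only one within 50 kb of a body, or 1 of 46 genes (2.17%). Of the other genes, 0.428% had an input peak in the body, 0.564% at the promoter or in the body and 2.25% within 50 kb of the body. None of the 50 Runx1 peaks overlapped an input peak, while 35 of the 3531 in the list did. The methods name a threshold on enrichment over input for the peak calling. They name input data of other series for the transcription factors and do not say which input served for the Runx1 peaks, so its part in this overlap was not tested.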

How the data were processed

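The data comprise 1 Runx1 ChIP library and 1 input library of DP thymocytes. For each, a list of peaks with a score was deposited by the authors, and the files do not say what the score measures. The submitters' processing notes name HOMER and mm9. Per the methods, HOMER was run on the factors with its default thresholds on FDR and on enrichment over input and over the local surroundings, and the aligner is not given in the sources used here. Runx1 peaks were 187 bp wide but for 1, and input peaks 171 bp.

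Starts were made 1-based. The reference was NCBIM37 (chromosome 1 of 197195432 bp), and no Runx1 peak ended beyond its chromosome. The TSS was that of the longest protein-coding transcript of the GENCODE annotation, and the body was the span of the gene. Of several entries for a symbol, the longest was kept. A peak was assigned by its centre, to every gene in reach. The RUNX motif was searched in 201 bp around the centre and in the same width 1 kb to each side. Shares were standardised for gene length over 5 classes of equal size. Ranks give tied scores the best rank.

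The genes and the lists of roles, other pathway genes and motifs were chosen with earlier results of these data known, so shares were set beside those of all other genes or peaks without a test. Intervals cover counting over genes or peaks only. The 46 genes are all accounted for by name, with each peak at the promoter or in the body described. Sequences were chosen by score among peaks there with TGTGGT, up to 12. Expression values of the study were not used here. Assignment was checked on simulated peaks. Python 3.11.15, numpy 2.4.6, pandas 2.3.3, scipy 1.17.1 and matplotlib 3.10.9 were used.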

Additional observations from a re-analysis of the deposited data

How the results depend on the processing

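Of 93 values under alternatives, 84 stayed within the interval or spread of the main value, 9 moved out of it and none reversed. A share or a median cannot fall below 0, so only a difference could reverse. The intervals are wide, as they rest on 46 genes or 50 peaks, and staying within them is a weak criterion. The difference in share between the 46 genes and the other genes stayed above 0 under all 43 alternatives run for it. It was smallest in the body, where it moved from 17.4 percentage points to 9.08 with the upper quartile of scores and to 21.3 with any overlap. At the promoter it ranged from 14.6 within 1 kb of the TSS to 26.1 within 10 kb, at either place from 21.3 with only the peaks that hold TGTGGT to 32.5, and within 50 kb of the body from 30.7 with only the peaks that hold TGTGGT to 41.0 with a flank of 25 kb.

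The share with a peak within 5 kb of the TSS (30.4%) moved to 17.4% within 1 kb and to 17.4% with only the peaks that hold TGTGGT. The share in the body (23.9%) moved to 10.9% with the upper quartile of scores, and the share at either place (41.3%) to 23.9% with only the peaks that hold TGTGGT. The share within 50 kb of the body (65.2%) moved to 43.5% when each peak was given to the nearest TSS only, to 47.8% with scores above the median, to 45.7% with the upper quartile of scores and to 39.1% with only the peaks that hold TGTGGT, as fewer bases or peaks were counted. In the other genes the values under these last 4 settings were 10.3%, 10.9%, 7.82% and 8.4%. The difference in the share with TGTGGT between centre and flank (26.0 percentage points) moved to 41.7 with the upper quartile of scores, over 24 peaks, and the cause was not tested. The share of peaks with the motif ranged from 34.0% for TGTGGTT to 58.6% with scores above the median.

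No paired analysis was possible because only 1 library was made per condition, and leaving out a replicate was not possible for the same reason. The lists hold no reads, so the depth that limits the detection of a peak is unknown.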
